A study of Homo sapiens with 4 samples.

Results

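ATOH8 belongs to the basic helix-loop-helix (bHLH) transcription factors, and TCF3 is an E protein of the same family that most tissues express. The regions described here are the ATOH8 peaks that lay between protein-coding genes and shared no base with a TCF3 peak. They were picked from the ATOH8 peak list by 3 conditions: no shared base with any listed TCF3 peak, a midpoint outside all RefSeq protein-coding genes of GRCh38, and a midpoint more than 5 kb from every end of such a gene. Of 4951 ATOH8 peaks on chromosomes 1 to 22 and X, 481 (9.72%) met all of them. The study mapped Flag-tagged ATOH8 and Myc-tagged TCF3 by ChIP-seq, the sequencing of DNA pulled down with a protein, in the prostate cancer line DU145. Its 4 libraries were 1 pull-down per factor with a matching input, from cells fixed with 1% formaldehyde for 10 min, and the inputs were not analysed here. Each group was 1 library, so no value below has a replicate error, peaks are not replicates, and no test was made; intervals cover the counting of peaks only. The sources used here do not say how the tagged proteins were expressed, how deep the libraries were or whether peaks were called against the inputs, and the cell line cannot be checked against marker genes in a peak list.

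bHLH proteins bind DNA as dimers at short words called E-boxes, CANNTG, and class II factors of the ATOH kind are known to pair with E proteins such as TCF3. Sequence between protein-coding genes holds enhancers, the genes of long non-coding RNAs (lncRNAs) and microRNAs, transfer RNA genes, pseudogenes and repeats. MicroRNAs are cut from hairpins in longer host transcripts, and their seed, bases 2 to 8, directs them to target messenger RNAs.

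The sequences below are shown because they lie under the regions or are made by the microRNA genes beside them. The 5 lncRNA start windows (250 bases before to 50 after a RefSeq start, GRCh38.p14) run 5′ to 3′ on the strand of the gene, with every CANNTG word in capitals. The first pair were taken by score among windows that shared most of their bases with a peak, and the other 3 were picked after their values were seen, for MALAT1, an abundant nuclear lncRNA, and for the host genes of the miR-200b cluster and of miR-34a.
LOC105378629 start window, chr1:32351815-32352114, minus strand: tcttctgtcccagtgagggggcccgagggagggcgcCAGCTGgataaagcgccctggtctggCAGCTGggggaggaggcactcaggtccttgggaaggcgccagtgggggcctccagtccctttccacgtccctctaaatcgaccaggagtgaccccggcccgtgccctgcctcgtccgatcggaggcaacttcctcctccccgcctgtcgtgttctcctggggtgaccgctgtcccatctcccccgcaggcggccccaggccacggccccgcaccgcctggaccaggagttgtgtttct
LOC124905136 start window, chr22:46035860-46036159, plus strand: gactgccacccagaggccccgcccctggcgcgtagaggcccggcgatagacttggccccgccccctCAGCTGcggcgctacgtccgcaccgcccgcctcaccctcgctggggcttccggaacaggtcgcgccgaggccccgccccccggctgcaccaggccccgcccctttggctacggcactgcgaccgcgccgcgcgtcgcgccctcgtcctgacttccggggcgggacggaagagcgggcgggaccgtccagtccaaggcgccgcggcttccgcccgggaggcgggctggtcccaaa
MALAT1 start window, chr11:65497488-65497787, plus strand: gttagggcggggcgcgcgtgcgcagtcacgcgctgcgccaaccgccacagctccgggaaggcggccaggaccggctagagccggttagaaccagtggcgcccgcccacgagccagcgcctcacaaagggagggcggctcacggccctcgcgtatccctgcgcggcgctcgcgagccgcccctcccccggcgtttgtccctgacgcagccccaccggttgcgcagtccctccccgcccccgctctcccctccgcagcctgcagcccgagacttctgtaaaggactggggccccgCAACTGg
MIR200BHG start window, chr1:1162627-1162926, plus strand: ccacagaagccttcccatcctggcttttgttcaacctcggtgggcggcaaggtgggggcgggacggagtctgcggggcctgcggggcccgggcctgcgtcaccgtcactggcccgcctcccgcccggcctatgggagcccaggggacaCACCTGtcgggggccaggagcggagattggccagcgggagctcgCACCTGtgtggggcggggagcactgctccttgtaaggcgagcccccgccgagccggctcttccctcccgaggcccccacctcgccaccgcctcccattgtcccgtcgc
MIR34AHG start window, chr1:9182289-9182588, minus strand: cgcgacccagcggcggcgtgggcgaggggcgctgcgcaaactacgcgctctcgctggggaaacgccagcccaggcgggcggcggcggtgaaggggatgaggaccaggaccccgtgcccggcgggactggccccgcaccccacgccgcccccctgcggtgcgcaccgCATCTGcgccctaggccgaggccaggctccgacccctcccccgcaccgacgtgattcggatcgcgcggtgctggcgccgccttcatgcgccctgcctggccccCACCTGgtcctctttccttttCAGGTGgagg
The windows of LOC105378629 and LOC124905136 held the word CAGCTG and that of MIR200BHG held CACCTG at 2 places. The window of MIR34AHG had 3 words, among them CACCTG and its reverse complement. The single word at MALAT1 was CAACTG.

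Mature microRNAs of the genes that the regions flanked are given with the seed in capitals, grouped by shared seed. miR-200b-3p and miR-429 shared the seed AAUACUG, miR-200a-3p differed from it within the seed, and let-7a and let-7f shared GAGGUAG.
hsa-miR-200b-3p: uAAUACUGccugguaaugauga
hsa-miR-429: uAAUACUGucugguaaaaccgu
hsa-miR-200a-3p: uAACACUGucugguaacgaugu
hsa-let-7a-5p: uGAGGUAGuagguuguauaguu
hsa-let-7f-5p: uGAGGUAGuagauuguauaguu
hsa-miR-34a-5p: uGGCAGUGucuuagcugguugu
hsa-miR-9-5p: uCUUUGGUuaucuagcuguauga
hsa-miR-23a-3p: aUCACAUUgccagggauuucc
hsa-miR-27a-3p: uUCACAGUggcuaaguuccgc
hsa-miR-24-3p: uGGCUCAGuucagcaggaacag

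Peaks stood on the upstream side of some microRNA genes and on the downstream side of others. The miR-200b, miR-200a and miR-429 hairpins, whose products are known to hold down the ZEB repressors of the epithelial state, lie together on chromosome 1, and 3 of the regions preceded them. These ran from 1159539 to 1160074 with score 52, from 1162396 to 1163538 with score 94, and from 1164533 to 1165236 with score 60. The score is the authors' own value per peak, used only within its list. The middle peak covered the start of the host gene MIR200BHG (chromosome 1, 1162877 to 1170338) and held the whole window printed above. The third ended 1868 bp before the miR-200b hairpin. The TCF3 list had its nearest peak 67047 bp from the third.

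The miR-23a, miR-27a and miR-24-2 hairpins on chromosome 19 had 3 of the regions upstream, 2056, 10002 and 13799 bp from the miR-23a hairpin, with scores of 121, 132 and 148. The hairpins themselves lay under another ATOH8 peak (13834761 to 13837010, score 101) that was not counted here, since a protein-coding gene ended within 5 kb of its midpoint. A shared pair stood between, with scores of 57 for ATOH8 and 257 for TCF3. At the miR-9-2 hairpin on chromosome 5, peaks with scores of 101 and 63 lay inside the host gene MIR9-2HG, 5500 and 7287 bp to either side, and a TCF3 peak of score 36 stood 563 bp from the hairpin without touching either.

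A peak with score 70 (chromosome 9, 94166341 to 94167199) lay inside MIRLET7A1HG, 512 bp from a start of that gene and 8758 bp before the let-7a-1 hairpin, which makes a microRNA known to hold down growth genes such as those of the RAS family. The start of MIR34AHG, host of miR-34a, a known p53 target, was covered by a peak of score 84 (chromosome 1, 9182101 to 9182741), 30324 bp from the hairpin and 727103 bp from the nearest TCF3 peak. In all, 20 of 1911 annotated microRNA genes (1.05%) lay within 10 kb of one of the regions. Hairpins touched by a peak were those of MIR6080 (score 76) and MIR8078 (score 134). MIR5700 lay 377 bp from a peak of score 90, and MIR1302-10 lay 573 bp from one of score 185. MIR129-1, MIR4309 and MIR5701-2 lay 1259, 1266 and 2226 bp from peaks with scores of 69, 58 and 65. The peaks lay upstream of MIR5700 and MIR4309 and downstream of MIR129-1 and MIR5701-2. MIR5188, MIR6821, MIR6068 and MIR7844 also had their peak downstream, 8357, 8472, 8975 and 9819 bp away. Whether the microRNAs change with ATOH8 cannot be read from a peak list.

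**Figure D1:**
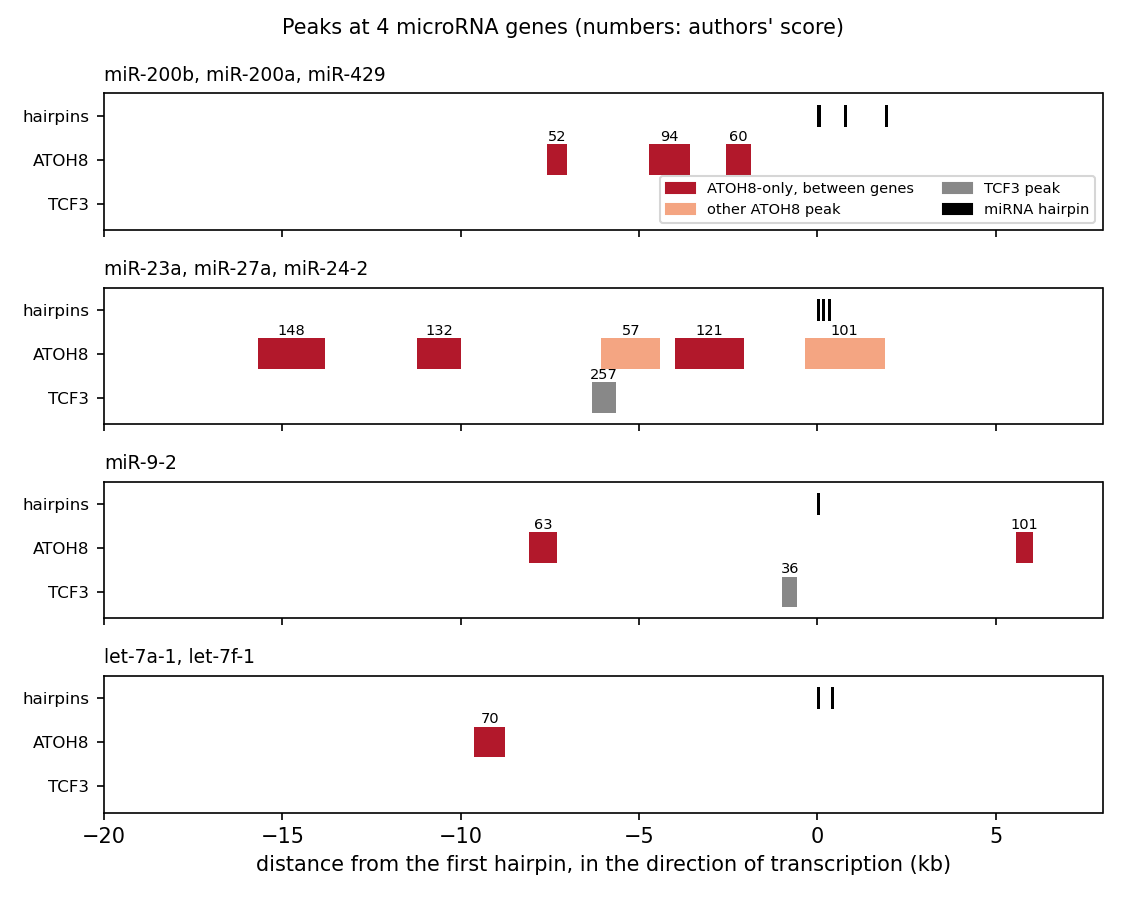
Peaks around 4 microRNA genes, by distance from the first hairpin in the direction of transcription (kb). Red boxes are ATOH8-only peaks between genes, light boxes other ATOH8 peaks, grey boxes TCF3 peaks and black marks hairpins, with the authors' score above each peak; the 3 red peaks at miR-200b all lie before the hairpins, and at miR-9-2 they lie on both sides.

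Most of the regions lay at genes that are not protein-coding, though the share was lower than in the other classes of peaks between genes. Of the 481 regions, 281 (58.4%, Wilson 95% interval 54.0 to 62.7%) had their midpoint inside or within 5 kb of such a gene, and 183 (38%) lay inside one. The share was 81.1% for TCF3-only peaks between genes (difference -22.7 percentage points, Newcombe 95% interval -27.3 to -18.2) and 29.4% for ATOH8-only peaks deep inside protein-coding genes, meaning more than 5 kb from their ends (difference 29.0 points, 22.9 to 34.7). The nearest such gene was a lncRNA for 199 regions, a pseudogene for 64, a tRNA gene for 9, a microRNA or an snRNA gene for 3 each, a ribosomal RNA gene for 2 and the immunoglobulin kappa locus for 1. The other 200 regions (41.6%) had no annotated gene of any kind within 5 kb, with a median score of 72.5 against 79 for those at lncRNAs and 87 for those at pseudogenes.

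Among lncRNAs, the highest score, 338, was at LOC124904614 on chromosome 19, 525 bp from the gene. LINC00957 followed with 275, its peak sharing 13 bases with the start window, and NGFR-AS1, antisense to the neurotrophin receptor gene NGFR, with 272. VESTAR had a peak of 265 at 2773 bp, SCIRT one of 262, LOC105373928 and FAM41C had peaks of 253 each, and SPEN-AS1 one of 246. These 8 scores stood above at least 96.4% of the ATOH8 list.

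NEAT1, the lncRNA that builds paraspeckles, carried the widest of the regions, 2970 bp (chromosome 11, 65421989 to 65424959), with score 245. It covered the lower-coordinate end of the gene at 65422798. MALAT1, its neighbour and a component of nuclear speckles, had a peak of 917 bp with score 120 over its start, 319 bp from the peak midpoint. SNHG5, a small nucleolar RNA host gene, had a peak of score 73 beside its start that shared 15 bases with the window. LINC-PINT, a lncRNA known as a p53 target, held peaks with scores of 168 and 59. The nearest TCF3 peaks were 66825 bp from the NEAT1 peak and 39953 bp from the MALAT1 peak.

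RefSeq starts of lncRNAs were given for all compared chromosomes other than 8, which held 16 of the regions; starts there were not analysed here. Of the other 465 regions, 76 (16.3%, Wilson 95% interval 13.3 to 20%) had their midpoint within 1 kb of a lncRNA start. The share was 9.47% (352 of 3718) for TCF3-only peaks between genes, a difference of 6.88 percentage points (95% interval 3.64 to 10.6). It was 9.92% for ATOH8-only peaks deep inside protein-coding genes (difference 6.43 points, 2.13 to 10.8), and 13.9% for ATOH8-only peaks at protein-coding gene ends, where the interval of the difference, -0.906 to 6.36 points, included 0. Against the 70 ATOH8 peaks between genes that were shared with TCF3, at 18.6%, the interval also included 0 (-13.3 to 6.0 points). These intervals do not show that such classes are alike. TCF3-only peaks between genes lay farther from protein-coding gene ends, at a median of 114323.5 bp against 27664 bp for the regions. With a gene-end distance of 50 kb, the share of regions within 1 kb of a lncRNA start was 11.4% (18 of 158). Peak classes were not matched for this distance in any comparison here, and its part in the differences was not tested.

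**Figure D2:**
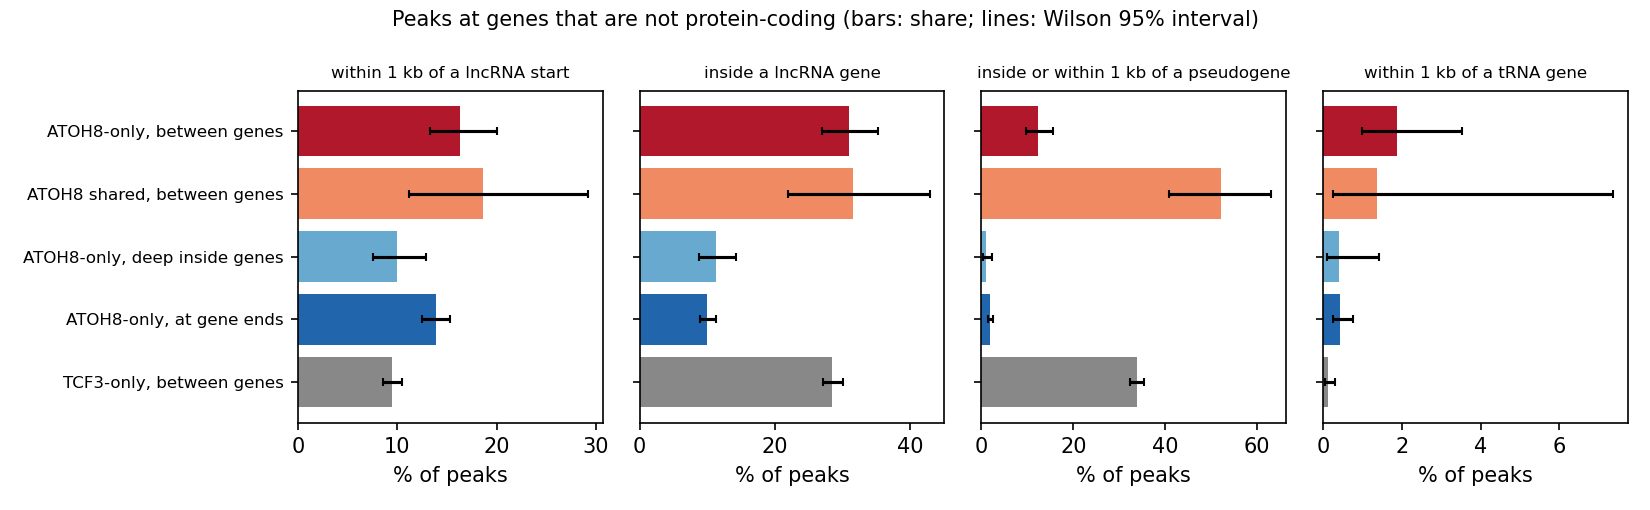
Share of peaks (%) at 4 kinds of site that are not protein-coding, for ATOH8-only peaks between genes and 4 other peak classes; bars give the share and lines the Wilson 95% interval, which covers counting only. ATOH8-only peaks between genes stand at 16.3% for lncRNA starts and 12.3% for pseudogenes, where shared ATOH8 peaks reach 52.1%.

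The starts that the regions covered were rich in CpG. Start windows of 69 lncRNA genes, 77 of 12829 lncRNA windows (0.600%), shared a base with 61 of the regions, and 46 of these regions held the start itself. Taking for each region the window with most shared bases, the median window held 25 CpG dinucleotides in 300 bases (quartiles 18 and 33) and was 68.7% G and C. All lncRNA windows had a median of 5 CpGs and 50% G and C, and all protein-coding windows 21 CpGs and 62.3%. At least 15 CpGs were found in 49 of the 61 windows (80.3%), against 26.1% of all lncRNA windows and 48.3% of the 288 lncRNA windows under TCF3-only peaks between genes. Protein-coding windows under ATOH8-only peaks at gene ends were higher still, with a median of 31 CpGs.

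**Figure D3:**
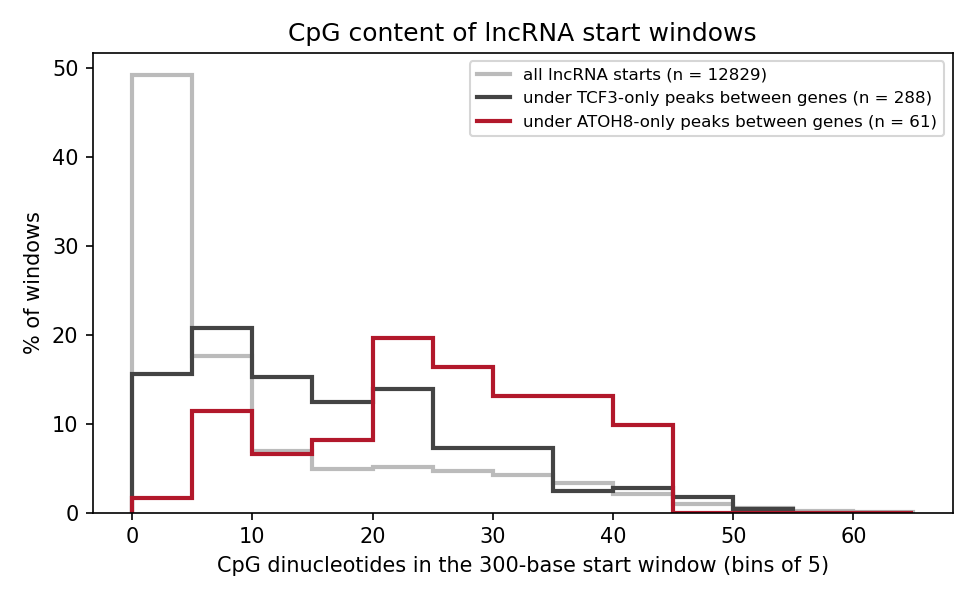
CpG dinucleotides per 300-base lncRNA start window, in bins of 5, as the percentage of windows in each of 3 sets. Windows under ATOH8-only peaks between genes have their median at 25 CpGs, those under TCF3-only peaks at 14 and all lncRNA windows at 5.

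E-box words were counted in the same windows as a description, since base composition differs between the sets and was not matched. Each word was searched as written, with its reverse complement where that differs, which covers both strands. Any CANNTG was present in 49 of 61 windows (80.3%, Wilson 95% interval 68.7 to 88.4%), against 74.8% of all lncRNA and 65.1% of all protein-coding windows. CAGGTG or its complement CACCTG was in 25 (41.0%, 29.5 to 53.5%), against 21.6% of all lncRNA windows, 28.8% of lncRNA windows under TCF3-only peaks between genes and 28.2% of protein-coding windows under ATOH8-only peaks at gene ends. CAGCTG, its own complement, was in 16 (26.2%, 16.8 to 38.4%), against 17.8% of all lncRNA windows and 25.4% of the protein-coding windows under ATOH8-only peaks. CAGATG or CATCTG was in 9 (14.8%, against 19%), CACGTG in 4 (6.56%, against 5.41%) and CATATG in 0 of 61, which allows up to 5.92% by the Wilson interval, against 4.72% of all lncRNA windows. The windows are not the peaks, and a word found in them is not a binding site.

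Transfer RNA genes, which RNA polymerase III reads, had 9 of the regions within 1 kb (1.87%, Wilson 95% interval 0.987 to 3.52%). The share was 0.127% for TCF3-only peaks between genes (5 of 3926; difference 1.74 points, 0.844 to 3.39) and 0.433% for ATOH8-only peaks at gene ends (11 of 2539; difference 1.44 points, 0.491 to 3.10). It was 0.395% for ATOH8-only peaks deep inside genes (2 of 506; difference 1.48 points, 0.115 to 3.15). Against shared ATOH8 peaks between genes, at 1.37% (1 of 73), the interval of the difference included 0 (-5.55 to 2.5 points). A group of 3 of the 9 regions lay together on chromosome 1 between 161440422 and 161472225, at the genes TRD-GTC2-1, TRG-GCC1-3 and TRL-CAG1-5 for aspartate, glycine and leucine tRNAs, with scores of 133, 76 and 115. Another 2 stood in the cluster of histone and tRNA genes on chromosome 6, at TRI-AAT5-2 (score 98) and TRV-CAC2-1 (score 86). The others were at TRF-GAA1-4 on chromosome 12 (119), TRL-AAG1-2 on chromosome 5 (96), TRN-GTT24-1 on chromosome 1 (86) and TRP-TGG3-3 on chromosome 16 (81). Of 443 annotated tRNA genes, 12 (2.71%) had such a region within 1 kb, 33 (7.45%) any ATOH8 peak and 13 (2.93%) any TCF3 peak.

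Near genes for 5S ribosomal RNA, another polymerase III product, lay peaks of score 253 by RNA5S6 and 74 by RNA5S12, with midpoints 942 and 663 bp away. The snRNA genes with a peak nearby were LOC124904137 (score 120, 646 bp), SNAR-F (66, 1269 bp) and RNVU1-8, a variant U1 gene (51, 409 bp). Genes for tRNA and 5S RNA have near copies elsewhere in the genome, and the sources used here do not say how reads that match several copies were treated.

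A pseudogene lay at or within 1 kb of 59 of the 481 regions (12.3%, Wilson 95% interval 9.63 to 15.5%), against 33.8% of TCF3-only peaks between genes (difference -21.5 points, -24.5 to -18.0) and 38 of the 73 shared ATOH8 peaks between genes (52.1%; difference -39.8 points, -51.2 to -28.1). Only 0.988% of ATOH8-only peaks deep inside genes had one. The highest score at a pseudogene was 1180, 599 bp from AMZ2P1. CASTOR3P (353), LRRC37A6P (343), MTMR9LP (334), ANKRD20A5P (331), WASH3P (185), DND1P1 (177) and LOC124904397 (171) followed. All but DND1P1 and LOC124904397 of these 8 are annotated as transcribed.

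Few scores were high, here as in the whole ATOH8 list. The 481 regions had scores from 51 to 8846, with quartiles at 60 and 113 and a median of 78. Medians were 90 for shared ATOH8 peaks between genes, 75.5 for ATOH8-only peaks deep inside genes and 85 for those at gene ends. A score of at least 200 was reached by 28 regions and of at least 1000 by 5. The 4 highest of the whole ATOH8 list were among them, as were 5 of its first 20 and 15 of its first 100. Their median width was 576 bp (quartiles 406 and 833) against 739, 618 and 678 bp in the other 3 classes, and they covered 324 kb in all. Across the 481 regions score and width had a Spearman rho of 0.28, both measured on the same library.

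**Figure D4:**
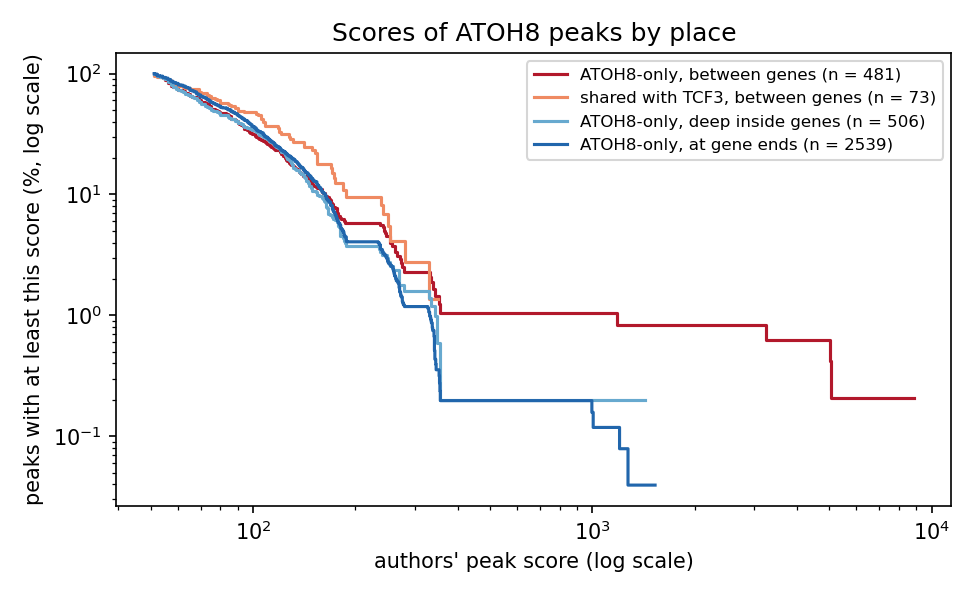
Percentage of ATOH8 peaks with at least a given score, for 4 classes of place; both axes are logarithmic. The ATOH8-only peaks between genes reach 8846 where those at gene ends stop at 1530 and those deep inside genes at 1430. Every score above 1180 between genes comes from 1 run on chromosome 16.

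The 4 highest scores stood in a run of 6 regions on chromosome 16 from 46382892 to 46398970. In order along the chromosome the scores were 86, 5024, 8846, 3253, 262 and 5041. Gaps between neighbours were 390 to 3223 bp, and the nearest protein-coding gene, SHCBP1, was 179993 to 195388 bp away. No annotated gene of any kind lay within 70 kb and no TCF3 peak within 169 kb (smallest distances 70739 and 169963 bp). These 4 peaks made up 32.2% of the summed score of all 481 regions, whose mean was 143 with them and 98 without. Whether repeated sequence plays a part in these scores was not tested.

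After these and the AMZ2P1 peak came a peak of score 354 on chromosome 5 (91280414 to 91280892), 87978 bp from ARRDC3, which encodes an arrestin-domain protein. Besides the chromosome 16 run, others of the 20 highest with no annotated gene of any kind within 5 kb were 28285 bp from CREB5, a cAMP-response element binding factor gene (278), 77130 bp from NCR2 (271), and 11341 bp from LBX1, a homeobox gene of muscle and spinal cord (256). The peak of score 338 was 12924 bp from GADD45B, a stress response gene.

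Runs joined by gaps of at most 20 kb held 73 regions (15.2%, Wilson 95% interval 12.2 to 18.7%) in 32 runs, of which 26 had 2 regions and 5 had 3. Besides the chromosome 16 run and the runs at miR-200b, miR-23a and the tRNA genes, runs of 3 lay near SBNO2 on chromosome 19 (scores 113, 127 and 54) and inside the lncRNA gene SFTA3 near NKX2-1, a homeobox factor of lung and thyroid (scores 80, 92 and 67). No other ATOH8 peak lay within 100 kb of 201 regions (41.8%). Neither this share nor the share in runs was set beside a value for all ATOH8 peaks, so neither sets the regions apart. By chromosome the regions made up 4.0% (4 and X) to 16.4% (13 and 22) of the ATOH8 peaks.

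The midpoint lay 27664 bp from a gene end in the median (quartiles 11700 and 73076). There were 90 regions within 10 kb, 225 from 10 to 50 kb, 79 from 50 to 100 kb, 65 from 100 to 500 kb and 22 beyond. Median scores in these bands were 90, 83, 75, 73 and 61, and median widths 716, 596, 533, 573 and 435 bp. Distance and score had a Spearman rho of -0.11 over the 481 regions. At least 50% of each band lay at a gene that is not protein-coding, while 23, 35, 12, 6 and 0 regions had a lncRNA start within 1 kb.

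Just past the 5 kb limit were peaks 5002 bp from FOXD3 (score 159), 5043 bp from MKNK2 (57) and 5053 bp from LOC124900189 (67). Just within it, and so left out, were peaks 4956 bp from TRIM73 (107) and 4931 bp from CBR3 (88). The farthest from any protein-coding gene were a pair on chromosome 22, at 4668538 and 3899952 bp from OR11H1 and inside pseudogenes (scores 74 and 54), and one on chromosome 15 at 3295013 bp with score 75. Next came one inside LOC124900859, 1398985 bp from PCDH10 (94), and one in the immunoglobulin heavy chain region, 1342519 bp from TMEM121 (172).

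The gap to the nearest TCF3 peak, which the choice of regions used only where it was 0, was 59.9 kb in the median. It was 62.1 kb for ATOH8-only peaks deep inside genes and 77.3 kb for those at gene ends. A TCF3 peak lay within 10 kb of 76 regions (15.8%, Wilson 95% interval 12.8 to 19.3%), against 13.0% and 15.1% in those classes, and the intervals of both differences included 0 (-1.63 to 7.17 and -2.60 to 4.49 points). Within 100 kb the share was 66.9%, 10.2 points above that at gene ends (5.46 to 14.7) and 2.32 points above that deep inside genes (-3.60 to 8.20). Regions close to TCF3 without touching it included those at LINC00957 (1111 bp) and TRD-GTC2-1 (1191 bp).

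**Figure D5:**
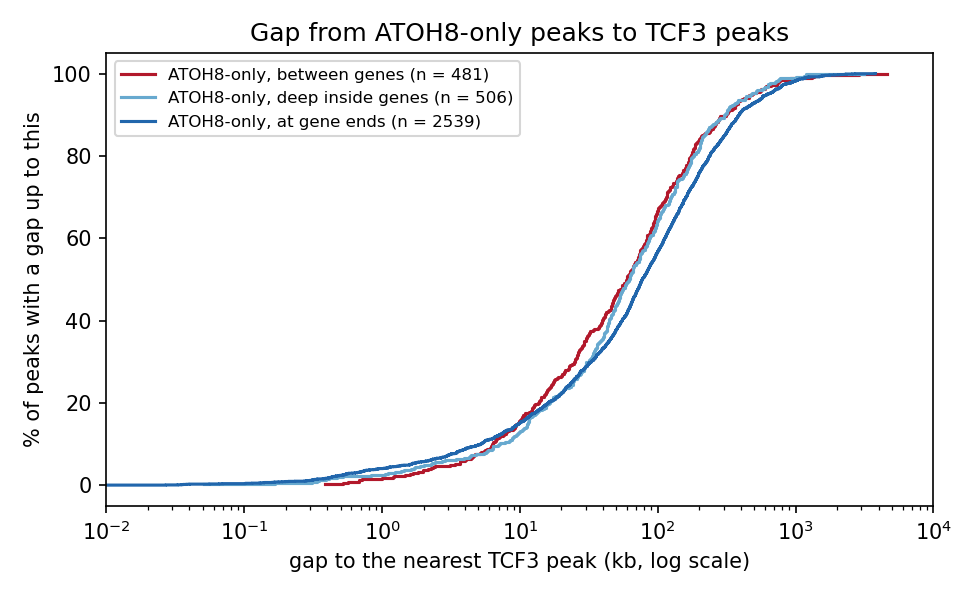
Percentage of ATOH8-only peaks with a gap to the nearest TCF3 peak up to the value on the x axis (kb, logarithmic), for peaks between genes, deep inside genes and at gene ends. The medians are 59.9, 62.1 and 77.3 kb.

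The regions were nearest to 425 protein-coding genes, 360 of them within 100 kb (1.80% of 19974). Lists of genes that fit the cell line and the factors are set beside this share. Of 24 ferroptosis suppressors, genes that protect cells from death by lipid peroxidation, 2 were nearest to a region: HMOX1, the haem oxygenase gene (score 52, 8965 bp from the gene), and VKORC1L1, a vitamin K reductase gene (98, 95214 bp, inside LINC03006). Of 23 ferroptosis promoters, 1 was, YAP1, the Hippo pathway co-activator gene (122, 35183 bp). None of 37 lipid synthesis genes (fatty acid and sterol), SCD among them, 17 ID, HES and HEY genes, 24 iron and BMP-SMAD genes, 21 cell cycle genes or 17 prostate markers was nearest to one within 100 kb. A list of this size holds too few genes to set apart from a share of 1.80%. ATOH8 peaks inside protein-coding genes, within 5 kb of their ends or shared with TCF3 were not counted here. A listed gene without a region may still have such a peak.

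Of 47 bHLH activator and E protein genes, 3 were nearest to a region. TCF3 itself had one 15006 bp from its gene (chromosome 19, 1667198 to 1668045, score 102), 45786 bp from the nearest TCF3 peak. TCF12, another E protein gene, had one at 30665 bp with score 70, inside LINC03065, and TAL2, a bHLH gene of T cell leukaemia, one at 6141 bp with score 63. Of 26 hypoxia response genes SLC2A1, the glucose transporter gene, had a region of score 65 at 8279 bp, inside its divergent transcript SLC2A1-DT. Of 24 genes of epithelial-mesenchymal transition and adhesion JUP, which encodes plakoglobin, had one of score 90 at 6752 bp. Among housekeeping genes, ACTB, which encodes beta-actin, had a region of score 85 at 27674 bp, and YWHAZ had one of score 60 at 7859 bp.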

How the data were processed

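Peak lists of 2 ChIP-seq libraries were used, matched to ATOH8 and TCF3 by name. Each deposited list gives the authors' score per peak. The aligner, caller, threshold and meaning of the score were not given in the sources used here. Per the submitters' processing notes, hg38 was the build, and positions are printed as listed, since whether they count from 0 or 1 is not stated. The ATOH8 list held 4997 peaks and the TCF3 list 11390; 46 and 60 on other sequences were left out. Scores jumped from 996 to 356 and 232 to 189 (ATOH8) and from 887 to 280 (TCF3); the lists also held 3 and 5 lines without a peak. Whether peaks with scores in between exist is not known, so a region without a listed TCF3 peak was not taken as free of TCF3. Read depth was not known.

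Genes, starts and microRNAs came from RefSeq GRCh38.p14, the same chromosome build as hg38. Start windows were matched to genes by gene ID. Overlap meant at least 1 shared bp. Shares have Wilson 95% intervals and differences Newcombe intervals, which cover counting only. The code that assigns peaks to classes was checked on simulated peaks with known answers, which is no test of the data. Regions and gene lists were chosen with earlier results of these data known. Named regions are the 20 highest, the 5 farthest, those about 5 kb, the largest runs, up to 8 per gene type and listed genes within 100 kb; some that the rule names are given only as counts or are not reported here. MicroRNA host genes, NEAT1, MALAT1, SNHG5 and LINC-PINT were picked after their values were seen. Computations used matplotlib 3.10.9, pandas 2.3.3, scipy 1.17.1 and numpy 2.4.6 under Python 3.11.15.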

Additional observations from a re-analysis of the deposited data

How the results depend on the processing

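Of 69 recomputed values, 51 stayed within the interval of the reported value or, for counts, within 1.5 times of it. With a gene-end distance of 50 kb there were 166 regions, a median width of 526.5 bp and 144 nearest genes. The higher-ranked 50% of peaks by score left 220 regions and 203 nearest genes, with a median score of 120, a median width of 668.5 bp and 11.4% of regions in runs. The lower counts and the higher median score follow from keeping fewer or higher-scoring peaks; the cause of the other shifts was not tested. The share at a gene that is not protein-coding was 38% with the midpoint inside the gene only and 50.1% within 1 kb. The share in runs was 7.28% with gaps of 5 kb, 23.7% with 100 kb and 11.7% without 1 Mb bins of 5 or more regions. A TCF3 peak lay within 1 kb of 1.46% and within 100 kb of 66.9%. Its share within 10 kb was 20.1% (102 of 507) with a reciprocal overlap of 50% and 20.9% (107 of 512) with midpoints within 200 bp. Both settings let in peaks that overlap a TCF3 peak, which count as within 10 kb by definition. With a gene-end distance of 1 kb the share was 20.7%, and the cause of that shift was not tested. The share within 1 kb of a lncRNA start was 15.9 to 18.4% under the alternatives other than the 50 kb distance, where it was 11.4%, and tRNA genes then had 1 region within 1 kb. No paired analysis was possible because each group had 1 library. Peak lists without read depth or replicates cannot show how well any peak would repeat.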
